A study of Mus musculus with 15 samples.

Results

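The 9 genes described here were chosen by symbol from the 55335 genes in the table: the receptor gene Nr3c1, the steroid-activating enzyme gene Hsd11b1, the receptor targets Sgk1, Tsc22d3, Fkbp5, Zbtb16 and Cebpd, and the metallothionein genes Mt1 and Mt2. They were measured by RNA-seq in tumor-associated macrophages (TAMs) sorted by FACS, with antibodies against CD11b and F4/80, from tumors grown in the liver of C57BL/6 mice out of Hepa1-6, a cell line of mouse hepatoma. The 15 samples formed 3 groups of 5. The tumor cells were control cells, cells overexpressing miR-144 or cells overexpressing miR-451a, per the methods from control or miRNA lentivirus, and a lentivirus for luciferase was given to the Hepa1-6 cells of these liver tumors. The RNA came from macrophages that met those tumors and were not themselves engineered. Mice of all groups were sacrificed 3 weeks after tumor cells were placed in the left liver lobe in Matrigel, and the labels used here give neither age nor sex. The study asked whether molecules with an anti-tumor role change in TAMs when the tumor overexpresses either miRNA. Because the overexpression is in the tumor cells, no gene in these libraries checks the group labels. The labels do not tie a sample to a mouse, so p-values measure the spread between these samples, which may be partly technical.

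Glucocorticoids are steroid hormones that dampen inflammation, and macrophages are among the cells that respond to them. The hormone binds the glucocorticoid receptor, a transcription factor encoded by Nr3c1, which is held in the cytosol by heat shock protein chaperones and binds DNA in the nucleus once it carries hormone. Textbook targets of the receptor include Tsc22d3, Fkbp5, Sgk1, Zbtb16 and Cebpd. The metallothioneins Mt1 and Mt2 are small cysteine-rich proteins that bind zinc and copper, and their genes respond to metals through the factor Mtf1 and to glucocorticoids as well.

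Values are FPKM, fragment numbers divided by the length of the transcript and the depth of the library, so levels are per length and can be compared between genes. The depth implied by the smallest steps of the table was 15.5 to 30.3 M fragments per sample, with a median of 23.3 M. All 8 macrophage markers were above 1 FPKM in every sample, and their summed level was 9016 to 9886 FPKM in control, 15776 to 17486 in miR-144 and 15484 to 16596 in miR-451a TAMs. Of these markers, Adgre1, which encodes F4/80, and Csf1r were called higher in both miRNA groups, and Cd68 was called lower. Of 5 Kupffer cell markers, Clec4f was listed at 0 in all 15 samples and 4 were under 1 FPKM throughout, Clec4f included, while Cd5l was called higher in both miRNA groups (log2 change 2.66 and 2.54), and the sum of the 5 was 3.30 to 3.77 FPKM in control, 17.1 to 50.1 in miR-144 and 16.0 to 47.3 in miR-451a TAMs. Of 6 hepatocyte markers, 5 were listed at 0 in all samples, Alb included. All 4 fibroblast markers were detected, with a summed level of 71.5 to 90.6 FPKM in control, 94.2 to 148 in miR-144 and 128 to 163 in miR-451a TAMs. Of 7 T and NK cell markers, Cd3e, Cd3g and Ncr1 were listed at 0 throughout and 6 were under 1 FPKM in all samples. The sum of the 7 was 1.40 to 1.88 FPKM in control, 5.69 to 8.90 in miR-144 and 5.27 to 9.51 in miR-451a TAMs, and most of it was Cd4, with a mean of 1.32, 6.86 and 7.16 FPKM, while Klrb1c had means of 0.319, 0.113 and 0.0721 FPKM. The 4 monocyte markers summed to 2.39 to 3.75, 7.05 to 11.98 and 6.59 to 11.1 FPKM in the same order (mostly Plac8), the 4 B cell markers to 0.138 to 0.375, 1.11 to 1.45 and 1.17 to 1.73 (mostly Cd79b), the 4 endothelial markers to 3.70 to 4.29, 4.67 to 5.02 and 4.65 to 5.93 (mostly Kdr, while Pecam1 and Stab2 had lower means in both miRNA groups), and the 6 eosinophil and mast cell markers to 1.999 to 2.62, 0.351 to 0.771 and 0.392 to 0.613 (mostly Siglecf in control). The 6 neutrophil and 5 dendritic cell markers were each under 1 FPKM in all samples. Each of the sums given separated control from both miRNA groups in the same contrast as the genes below, and their part in those results was not tested. Samples 3 and 4 of both miRNA groups stood apart from the other miRNA samples in the Kupffer cell marker Cd5l, at 38.4 to 48.9 against 15.3 to 19.7 FPKM. For Nr3c1, Tsc22d3, Mt1 and Mt2, changes or calls against control are also given without them. Correlations between genes are given only with them.

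The promoter windows that show the textbook elements of these genes are given before the values, because Sgk1 had the largest change on the log2(FPKM + 1) scale and Mt1 and Mt2 are neighbors that share a regulator. Of the 9 genes, 6 have an entry in the RefSeq promoter table of build GRCm38.p6, which holds 250 bases before and 50 bases after each start, and these 6 have 13 windows. Nr3c1, Zbtb16 and Cebpd have no entry. Windows were searched on both strands for AGAACA, the receptor motif, and TGCNCNC, the core of the metal response element. AGAACA occurred in 19.0% of all 32851 windows and TGCNCNC in 51.0%. Capitals mark, in Sgk1, AGAACA followed after 3 bases by its reverse complement and, in Mt1 and Mt2, each match to TGCNCNC on either strand.
Sgk1, window 5, plus strand, chr10:21993640-21993939: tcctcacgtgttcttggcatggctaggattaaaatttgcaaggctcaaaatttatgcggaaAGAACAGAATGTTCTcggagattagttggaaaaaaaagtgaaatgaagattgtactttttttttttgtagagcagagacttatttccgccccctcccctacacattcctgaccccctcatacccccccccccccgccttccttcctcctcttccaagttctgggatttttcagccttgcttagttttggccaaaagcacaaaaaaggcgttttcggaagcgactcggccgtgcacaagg
Mt1, plus strand, chr8:94178839-94179138: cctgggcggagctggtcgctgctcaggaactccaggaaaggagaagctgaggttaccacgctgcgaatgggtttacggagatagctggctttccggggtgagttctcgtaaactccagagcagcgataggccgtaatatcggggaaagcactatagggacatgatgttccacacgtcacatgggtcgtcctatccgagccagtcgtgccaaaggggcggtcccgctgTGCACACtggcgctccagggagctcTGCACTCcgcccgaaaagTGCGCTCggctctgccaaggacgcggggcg
Mt2, plus strand, chr8:94172368-94172667: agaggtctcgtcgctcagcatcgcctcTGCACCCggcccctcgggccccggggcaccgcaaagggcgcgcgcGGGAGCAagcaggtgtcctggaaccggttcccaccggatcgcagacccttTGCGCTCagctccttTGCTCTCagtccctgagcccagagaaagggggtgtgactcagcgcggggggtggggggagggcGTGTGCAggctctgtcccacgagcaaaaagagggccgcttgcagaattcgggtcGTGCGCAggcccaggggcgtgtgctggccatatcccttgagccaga
The Sgk1 palindrome lies at 21993701 to 21993715 on chromosome 10, from position -189 relative to the start of that window's transcript. The search for the whole palindrome was added after its parts had been seen, and 3 of 32851 windows (0.00913%) hold it. The Mt1 window holds 3 matches to the metal core and the Mt2 window 6. The palindrome was in none of the other 12 windows of these genes, 5 of them of Sgk1. Of those 5, 2 hold 1 match each to AGAACA, and the last Sgk1 window holds 3 matches to the metal core, as many as Mt1. The Fkbp5 window holds no AGAACA, and 1 of the 3 Tsc22d3 windows holds 1 match. Windows with 3 or more matches to TGCNCNC made up 7.10% of all windows, and windows with 5 or more made up 0.697%. Sgk1 window 5 holds 3 matches to AGAACA, and 0.310% of all windows hold 3 or more of these. A match describes the letters and is no evidence of binding in these cells.

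Nr3c1, which encodes the receptor, was higher in TAMs of both miRNA groups, by about 1.5-fold. In control TAMs it read 9.15, 9.12, 9.23, 9.59 and 5.89 FPKM in samples 1 to 5. In miR-144 TAMs the 5 samples read 12.9, 8.36, 14.3, 14.4 and 13.6 FPKM, and in miR-451a TAMs they read 14.6, 15.02, 14.6, 9.37 and 13.1 FPKM. A single sample in each group lay well below the other 4, and through these low samples both miRNA groups overlapped control. Group means were 8.597 ± 1.52, 12.7 ± 2.50 and 13.4 ± 2.34 FPKM (SD, n = 5 each) in control, miR-144 and miR-451a TAMs. The change, here and below a difference on the log2(FPKM + 1) scale tested with limma and adjusted over 11419 genes, was 0.51 ± 0.16 (SE) with adjusted p = 0.0108 for miR-144 and 0.58 ± 0.16 with adjusted p = 0.00464 for miR-451a. In bulk RNA, fewer cells of a type and less RNA per cell cannot be told apart. The miR-144 call was lost when samples were centred on their medians (0.37, adjusted p = 0.0569), after quantile normalization (0.39, adjusted p = 0.0511) and without miRNA samples 3 and 4 (adjusted p = 0.0652). The miR-451a call was lost when samples 3 and 4 stood alone for that group (adjusted p = 0.0905).

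Hsd11b1 encodes the enzyme that regenerates active glucocorticoid from its inactive form inside cells. It was listed at 0 to 0.0790 FPKM, and 14 of 15 samples were at or under the level of 3 fragments, which was at most 0.0976 FPKM for its longest transcript. It did not reach the mean of 1 FPKM required for testing. In the fit without that filter it was not called, with adjusted p = 0.119 for miR-144 and 0.935 for miR-451a, and no fold is given. Apart from a single miR-144 sample, its level could not be told from the counting floor at this depth.

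**Figure D1:**
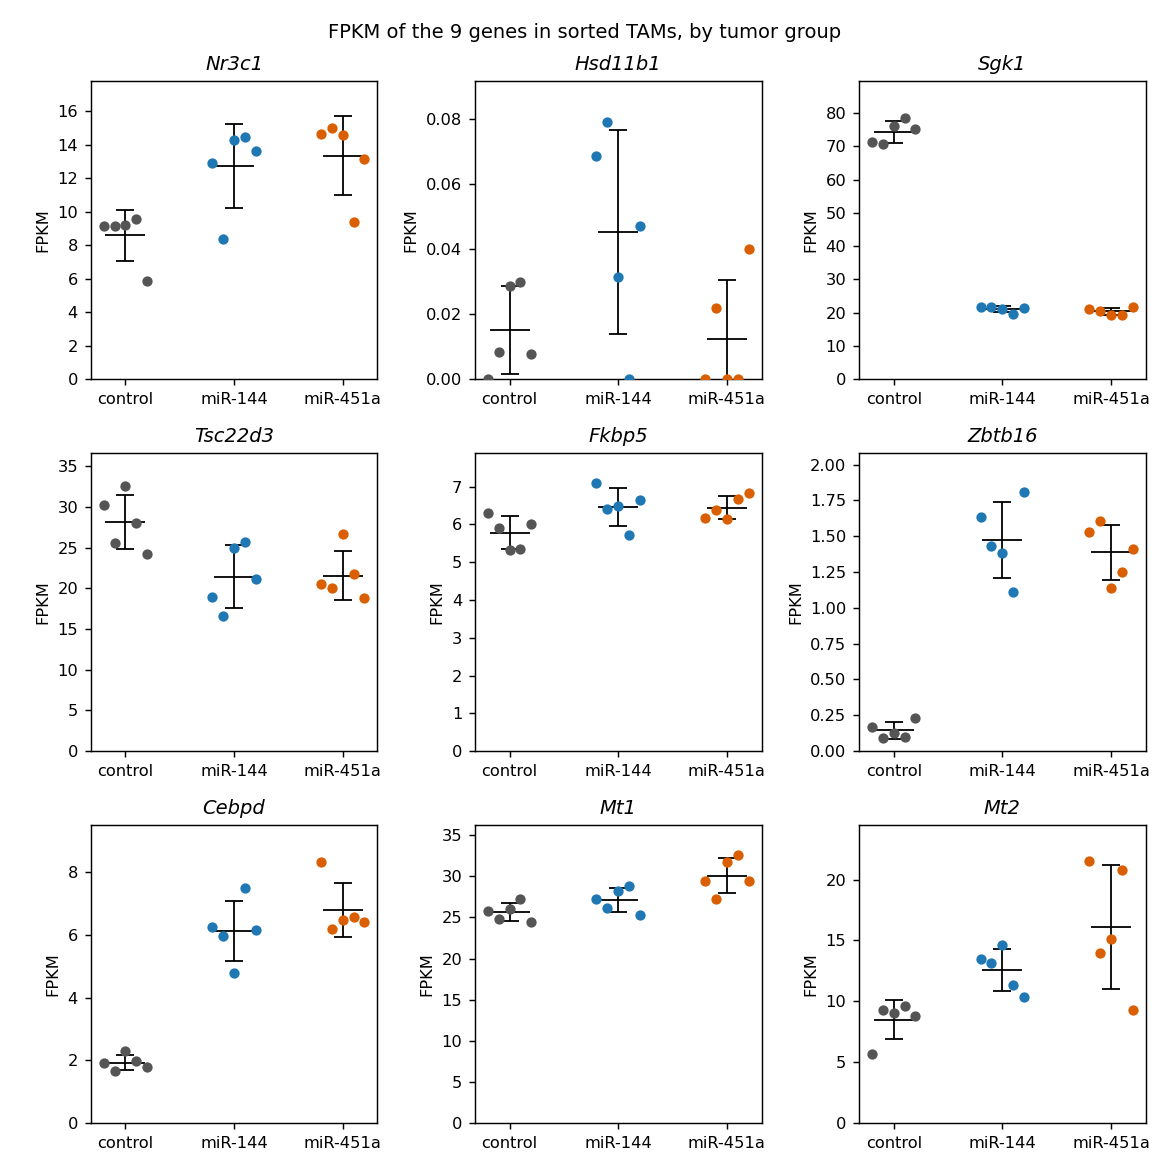
FPKM of the 9 genes (vertical axes, starting at 0, each panel on its own scale) in control, miR-144 and miR-451a TAMs, with samples 1 to 5 from left to right in each group, the long bar at the mean and the whiskers at 1 SD. Sgk1, Zbtb16 and Cebpd separate control from both miRNA groups, and Hsd11b1 reaches at most 0.0790 FPKM. The share of all genes that separate the groups was not counted.

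The receptor targets did not move as a block. Sgk1 and Tsc22d3 fell, Zbtb16 and Cebpd rose, and Fkbp5 moved only as far as the median gene of the table.

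Sgk1, a kinase that controls ion transport and cell survival, had the largest fall. Control samples read 71.2, 70.7, 76.0, 78.5 and 75.1 FPKM. The miR-144 samples read 21.9, 21.8, 20.99, 19.7 and 21.5 FPKM, and the miR-451a samples read 21.1, 20.4, 19.3, 19.5 and 21.7 FPKM. All 10 miRNA samples lay below every control sample, with a gap wider than the range within any group. The mean was 74.3 ± 3.30 FPKM in control (SD, n = 5), 3.51-fold the miR-144 mean of 21.2 ± 0.874 and 3.64-fold the miR-451a mean of 20.4 ± 1.02. On the log2 scale Sgk1 changed by -1.76 ± 0.041 (SE, adjusted p = 2.12e-14) and -1.81 ± 0.041 (adjusted p = 1.53e-14). The gene lies on chromosome 10 at 21882184 to 21999903, plus strand, and no other annotated gene overlaps it.

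Tsc22d3, which encodes the glucocorticoid-induced leucine zipper, an anti-inflammatory mediator, fell less and with overlap. Control samples read 30.2, 25.6, 32.5, 28.1 and 24.3 FPKM, miR-144 samples 18.9, 16.6, 25.0, 25.7 and 21.1, and miR-451a samples 20.6, 20.1, 26.7, 21.8 and 18.8. The highest miR-144 samples were 3 and 4, and the highest miR-451a sample was 3, followed by 4. Group means were 28.1 ± 3.35, 21.5 ± 3.89 and 21.6 ± 3.04 FPKM (SD, n = 5 each), so that levels in the miRNA groups were lower by 23.8% and 23.3%. This was a log2 change of -0.39 ± 0.12 (SE, adjusted p = 0.0102) in miR-144 and -0.37 ± 0.12 (adjusted p = 0.0127) in miR-451a TAMs. Without miRNA samples 3 and 4 it was -0.55 (adjusted p = 0.000506) and -0.48 (adjusted p = 0.00123). With those samples alone it was -0.14 (adjusted p = 0.323) and -0.21 (adjusted p = 0.151). Samples 3 and 4 read highest for this gene in both miRNA groups, so their removal had to deepen the fall.

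Fkbp5 encodes a co-chaperone of the receptor that lowers its affinity for hormone. It read 5.33 to 6.31 FPKM in control, 5.72 to 7.09 in miR-144 and 6.16 to 6.83 in miR-451a TAMs, with medians of 5.91, 6.48 and 6.38. The groups overlapped. Means were 5.78 ± 0.434, 6.47 ± 0.497 and 6.44 ± 0.301 FPKM (SD, n = 5 each). The log2 change was 0.14 ± 0.053 (SE) in both comparisons, with adjusted p = 0.0321 and 0.0350, and the median over all tested genes was 0.13 for miR-144 and 0.14 for miR-451a. After median centring the change of Fkbp5 was 0.0042 (adjusted p = 0.950) and -0.0094 (adjusted p = 0.886). Both calls were also lost without the filter on low values (adjusted p = 0.0595 and 0.0633), and each was lost when any of several single samples was left out. For miR-144 these were control samples 3 and 4 (adjusted p = 0.0841 and 0.0840) and miR-144 samples 1, 3 and 5 (0.0877, 0.0530 and 0.0653). For miR-451a they were control samples 3 and 4 (0.0906 each) and miR-451a samples 2, 4 and 5 (0.0510, 0.0722 and 0.0825).

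Zbtb16 encodes a zinc finger transcriptional repressor and was the gene with the largest ratio. Control samples read 0.170, 0.0925, 0.129, 0.10003 and 0.234 FPKM. The miR-144 samples read 1.64, 1.43, 1.38, 1.11 and 1.81 FPKM, and the miR-451a samples read 1.53, 1.61, 1.14, 1.25 and 1.41 FPKM. No miRNA sample overlapped control, and every sample was above the level of 3 fragments. The ratio of means was 10.2 for miR-144 (1.47 ± 0.265 against 0.145 ± 0.0583 FPKM, SD, n = 5 each) and 9.57 for miR-451a (1.39 ± 0.193). Log2 changes were 1.11 ± 0.076 (SE, adjusted p = 5.37e-09) and 1.06 ± 0.076 (adjusted p = 8.51e-09), and with a pseudocount of 0.1 in place of 1 it was 2.70 and 2.62, since the larger pseudocount understates the change of a low gene. Zbtb16 had a mean of 1.002 FPKM over the 15 samples and passed the filter only through the groups in which it was high, which favored a call. In the fit without that filter its adjusted p was 3.68e-08 and 5.61e-08.

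Cebpd encodes a transcription factor of the acute phase response. Control samples read 1.90, 1.66, 2.30, 1.97 and 1.80 FPKM, miR-144 samples 6.26, 5.97, 4.78, 7.49 and 6.14, and miR-451a samples 8.32, 6.20, 6.47, 6.56 and 6.40. Every miRNA sample was above every control sample. The ratio of means was 3.18 for miR-144 (6.13 ± 0.964 against 1.93 ± 0.242 FPKM, SD, n = 5 each) and 3.52 for miR-451a (6.79 ± 0.866). The changes on the log2 scale were 1.28 ± 0.094 (SE, adjusted p = 1.17e-08) and 1.41 ± 0.094 (adjusted p = 3.50e-09). Spidr overlaps Cebpd on the opposite strand with at most 2.93 FPKM. Whether the library kept strand is not given in the sources used here, so reads of the 2 genes may not be told apart.

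Of the metallothioneins, Mt1 was called higher in miR-451a TAMs and Mt2 in both miRNA groups, and neither was called different between those groups. Mt1 and Mt2 lie beside each other on chromosome 8, at 94179082 to 94180327 and 94172664 to 94173568, and share no stretch of 50 bases. Mt1 read 25.7, 24.8, 26.0, 27.2 and 24.5 FPKM in control, 27.3, 26.1, 28.2, 28.8 and 25.3 in miR-144 and 29.5, 27.3, 31.8, 32.6 and 29.4 in miR-451a TAMs. The miR-451a samples all lay above control, the lowest of them by a narrow margin, and the miR-144 samples overlapped it. Means were 25.6 ± 1.09, 27.1 ± 1.46 and 30.1 ± 2.11 FPKM (SD, n = 5 each). The log2 change was 0.22 ± 0.049 (SE, adjusted p = 0.000978) for miR-451a, and it was 0.078 ± 0.049 (95% interval -0.028 to 0.18, adjusted p = 0.178) for miR-144. After median centring the miR-451a change was 0.077 (adjusted p = 0.209). On the TPM scale Mt1 was also called higher for miR-144 (0.15, adjusted p = 0.0109), as it was with the sample numbers fitted as a block. In both miRNA groups the highest Mt1 samples were 3 and 4, and without them the changes were 0.16 (adjusted p = 0.00853) for miR-451a and 0.031 (adjusted p = 0.565) for miR-144. With samples 3 and 4 alone they were 0.32 (adjusted p = 0.000332) and 0.15 (adjusted p = 0.0198).

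Mt2 read 5.68, 9.27, 9.03, 9.61 and 8.81 FPKM in control, 13.5, 13.1, 14.6, 11.3 and 10.4 in miR-144 and 21.5, 14.0, 15.1, 20.8 and 9.26 in miR-451a TAMs. The miR-144 samples all lay above control, whereas miR-451a sample 5 fell within the control range. Means were 8.48 ± 1.59, 12.6 ± 1.70 and 16.1 ± 5.08 FPKM (SD, n = 5 each), a ratio to control of 1.48 and 1.90. The log2 change was 0.53 ± 0.19 (SE, adjusted p = 0.0231) for miR-144 and 0.82 ± 0.19 (adjusted p = 0.00141) for miR-451a. The miR-144 call was lost without control sample 1 (0.41, adjusted p = 0.0663), without miR-144 sample 3 (0.48, adjusted p = 0.0549), without miRNA samples 3 and 4 (0.50, adjusted p = 0.0780), after median centring (0.39, adjusted p = 0.0809) or quantile normalization (0.41, adjusted p = 0.0805), and without the filter on low values (adjusted p = 0.0531). The miR-451a call held in each of these.

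**Figure D2:**
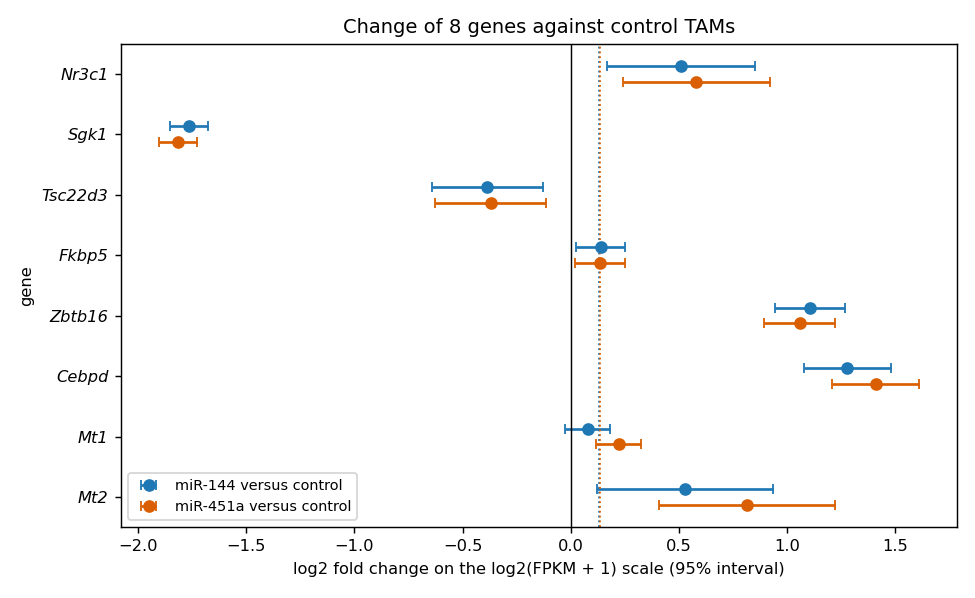
Log2 fold change against control (horizontal axis, log2(FPKM + 1) scale) of the 8 tested genes in miR-144 and miR-451a TAMs, with points at the estimate, bars at the 95% interval and dotted lines at the median of all tested genes (0.13 and 0.14). Sgk1 sits at -1.76 and -1.81, Cebpd at 1.28 and 1.41, and both Fkbp5 points lie on the dotted lines.

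Of the 9 genes, 8 passed the filter, Zbtb16 among them only through the miRNA groups. For miR-144 against control 7 of 8 were called, 5 higher (Nr3c1, Fkbp5, Zbtb16, Cebpd, Mt2) and 2 lower (Sgk1, Tsc22d3), while 67.2% of the table was called, 47.1% upward and 20.1% downward. For miR-451a against control 8 of 8 were called, 6 higher and 2 lower, where 68.3% of the table was called, 48.1% in the upward and 20.3% in the downward direction. Since most of the table was called, these counts do not set the 9 genes apart from it. The share of all tested genes without overlap between groups was not counted, so a lack of overlap does not set them apart either. The median log2 change of the 8 genes was 0.32 and 0.40, beside 0.13 and 0.14 over all tested genes. Both comparisons use the same 5 control samples. Relative to the median gene, the changes for miR-144 and miR-451a were -1.89 and -1.95 in Sgk1, 1.15 and 1.27 in Cebpd, 0.98 and 0.92 in Zbtb16, -0.52 and -0.51 in Tsc22d3, 0.38 and 0.44 in Nr3c1, 0.40 and 0.68 in Mt2, -0.052 and 0.084 in Mt1, and 0.0088 and -0.0019 in Fkbp5. Scaling mattered for the whole table: calls were higher in 70.1% and 70.3% of cases as deposited and in 50.01% and 49.6% after median centring. Sgk1, Tsc22d3 and Cebpd kept their direction and their call in both comparisons on the median-centred, the quantile and the TPM scale.

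None of the 8 genes was called between miR-451a and miR-144 TAMs, where limma called 0 of 11419 genes (0%) and 596 had an unadjusted p under 0.05. Mt1 had the largest difference for its error, 0.14 on the log2 scale (95% interval 0.039 to 0.25, adjusted p = 0.916 in limma), and its interval alone excluded 0. The interval was -0.14 to 0.037 for Sgk1, -0.069 to 0.33 for Cebpd, -0.21 to 0.12 for Zbtb16 and -0.12 to 0.11 for Fkbp5. It was wider for Tsc22d3, at -0.24 to 0.27, for Nr3c1, at -0.27 to 0.41, and for Mt2, at -0.12 to 0.69. In the order of the 3 levels control lay at an end for each of the 8 genes, and miR-144 and miR-451a were neighbors that were not called different. For Mt1 control and miR-144 were not called different in the main fit either, though some alternatives did call them.

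**Figure D3:**
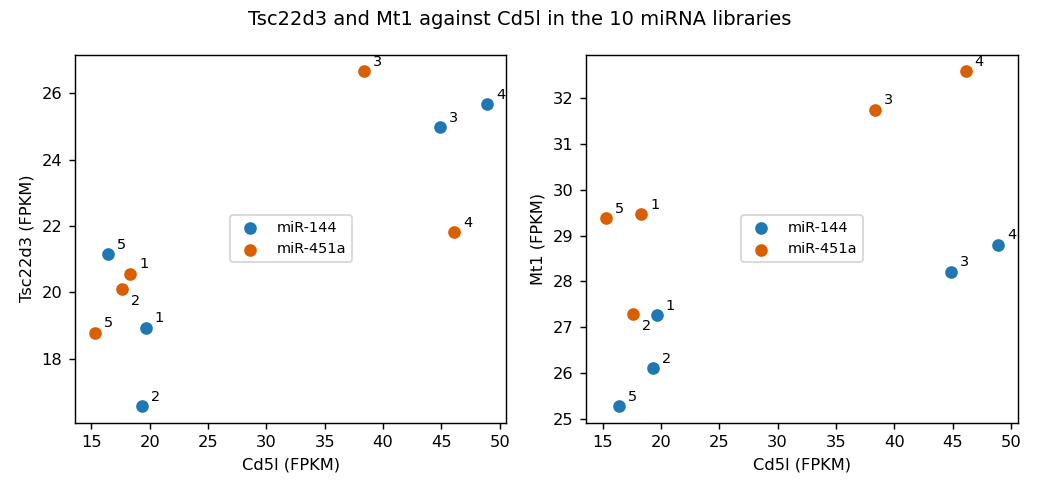
Tsc22d3 (left, FPKM) and Mt1 (right, FPKM) against Cd5l (horizontal axes, FPKM) in the 10 miRNA samples, each point a sample with its number. Samples 3 and 4 of both groups lie at 38.4 to 48.9 FPKM of Cd5l, and Tsc22d3 and Mt1 of each group are highest there.

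The variation among samples of a group differed between the genes. Over the deviations of the 15 samples from their group means, Mt1 and Mt2 correlated weakly (r = 0.31), Tsc22d3 and Mt1 more (r = 0.62), and Zbtb16 and Mt1 ran opposite (r = -0.78). Samples 3 and 4 of both miRNA groups were the highest of their group in Mt1 and Tsc22d3 and the lowest in Zbtb16. The correlations of Mt1 with Tsc22d3 and with Zbtb16 include this split and were not computed without these samples. Among 11418 other tested genes, those most like Mt1 were Prrc1 (r = 0.92), Smco4 (r = 0.90) and Baiap2 (r = 0.89). Those most like Fkbp5 were Csnk1e (r = 0.86), Gm44949 (r = 0.85) and H2-Ke6 (r = 0.85). These values describe 15 points that share a library between the 2 genes, and they are the highest of a large number of comparisons.

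Of 15 genes for the chaperones of the receptor, coregulators, related receptor and steroid-converting enzymes, 13 were tested, and in each comparison with control 9 were called higher and 2 lower, with a median log2 change of 0.35 for miR-144 and 0.36 for miR-451a. Of all tested genes 47.1% and 48.1% were higher and 20.1% and 20.3% lower, with medians of 0.13 and 0.14. Large rises were seen in the acetyltransferase coactivator Ep300 (13.1 ± 0.655 FPKM in control, 20.4 ± 0.615 in miR-144 and 20.6 ± 0.964 in miR-451a, SD, n = 5 each) and the ligand-dependent corepressor Nrip1 (1.72 ± 0.115, 3.002 ± 0.218 and 3.18 ± 0.235). The chaperone Hsp90aa1 fell from 41.6 ± 3.44 FPKM to 35.5 ± 1.33 and 33.2 ± 1.90 (log2 change -0.22, adjusted p = 0.00238, and -0.32, adjusted p = 0.000103). Hsp90ab1 was 241 ± 4.57, 227 ± 9.28 and 226 ± 5.47 FPKM and was called lower (log2 change -0.087 and -0.089, adjusted p = 0.0204 and 0.0182). Under quantile normalization Hsp90ab1 was called higher instead (0.16, adjusted p = 0.000470, and 0.14, adjusted p = 0.00137), and the call was lost on the TPM scale (adjusted p = 0.655 and 0.873). After median centring 8 genes of this list were higher and 4 lower for miR-144, with 8 and 3 for miR-451a. Of all 11419 tested genes 7023 and 7213 were then called, 3512 and 3577 of them higher.

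Of 20 other genes that glucocorticoids commonly induce, 16 were tested. In miR-144 TAMs 9 rose and 5 fell, and in miR-451a TAMs 8 rose and 5 fell, with medians of 0.39 and 0.33. After median centring 9 were higher and 6 lower for miR-144 (8 and 6 for miR-451a), and on the TPM scale 9 were higher and 4 lower (9 and 3). On the TPM scale 8006 and 8212 of all 11419 tested genes were called, 6128 and 6351 of them higher. As deposited, the share of this list called was 87.5% and 81.2%, beside 67.2% and 68.3% of all tested genes. Cd163, the macrophage scavenger receptor for hemoglobin, rose from 0.958 ± 0.119 FPKM in control to 5.69 ± 1.02 in miR-144 and 6.10 ± 1.20 in miR-451a TAMs (log2 change 1.76, adjusted p = 2.62e-09, and 1.84, adjusted p = 1.48e-09), and like Slc39a8 below it was under 1 FPKM in the control mean and passed the filter through the miRNA groups, which favored a call. Pdk4, a kinase that restrains glucose oxidation, rose from 1.78 ± 0.339 to 5.75 ± 0.507 and 6.52 ± 0.506 FPKM, and Nfkbia, the inhibitor of NF-kB, from 22.1 ± 1.56 to 48.1 ± 2.74 and 48.8 ± 3.30 FPKM. Anxa1, a mediator of the anti-inflammatory action of glucocorticoids, fell from 588 ± 20.6 FPKM to 110 ± 5.04 and 104 ± 1.96 (log2 change -2.41, adjusted p = 8.49e-17, and -2.48, adjusted p = 5.60e-17). Klf9, a transcription factor, fell from 31.1 ± 1.71 to 8.43 ± 0.352 and 8.40 ± 0.495 FPKM, and Cebpb, the relative of Cebpd, fell from 61.5 ± 7.23 to 28.3 ± 4.07 and 27.0 ± 4.26 FPKM while Cebpd rose.

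Of 27 genes for other metallothioneins, Mtf1 and zinc transporters, 18 were tested, of which 5 rose and 7 fell in miR-144 TAMs and 6 rose and 7 fell in miR-451a TAMs, with medians of 0.064 and 0.014. The share called, 66.7% and 72.2%, was near the 67.2% and 68.3% of all tested genes. The split moved with the scale, to 3 higher and 7 lower for miR-144 (3 and 9 for miR-451a) after median centring and to 8 higher and 7 lower in both on the TPM scale. The calls over all tested genes on these scales are given with the lists above. Mt3 and Mt4 had mean levels under 0.03 FPKM in every group. Mtf1, the metal-responsive factor, was 2.95 ± 0.302, 3.41 ± 0.387 and 3.25 ± 0.344 FPKM and was not called. The zinc exporter Slc30a1, itself a textbook target of Mtf1, fell from 19.2 ± 2.11 FPKM to 6.21 ± 0.953 and 5.94 ± 0.487 (log2 change -1.49, adjusted p = 1.10e-09, and -1.54, adjusted p = 7.17e-10), whereas neither Mt1 nor Mt2 was lower. Slc30a4, an exporter to vesicles, fell from 23.1 ± 0.631 to 4.88 ± 0.278 and 4.70 ± 0.356 FPKM, and the importer Slc39a6 from 25.2 ± 0.628 to 11.8 ± 0.835 and 11.6 ± 0.473. The importers Slc39a4 (0.197 ± 0.134, 1.88 ± 0.477 and 1.80 ± 0.620 FPKM), Slc39a8 (0.958 ± 0.0584, 1.57 ± 0.102 and 1.66 ± 0.174) and Slc39a14 (1.43 ± 0.0396, 1.98 ± 0.216 and 1.96 ± 0.0787) rose. Slc39a4 and Slc39a8 were under 1 FPKM in the control mean and passed the filter through the miRNA groups, which favored a call.

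**Figure D4:**
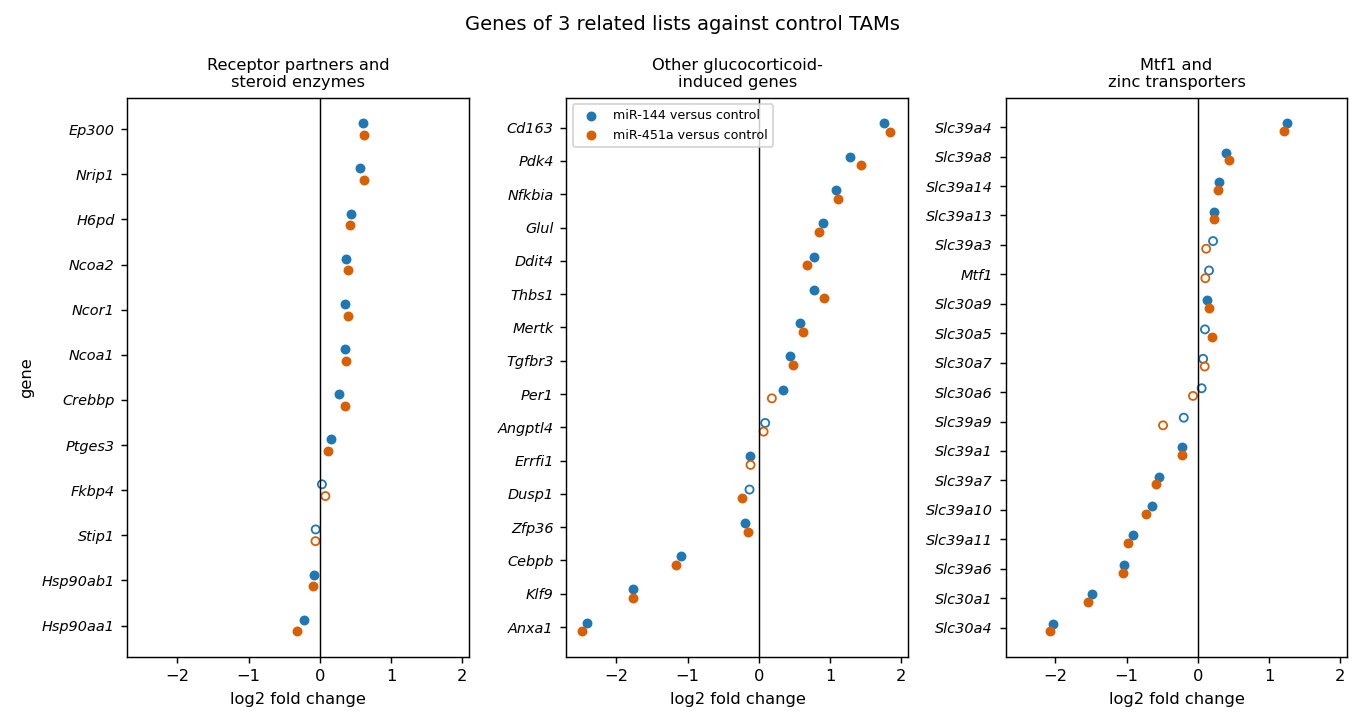
Log2 fold change against control (horizontal axes, log2(FPKM + 1) scale) of the reported tested genes of the 3 lists in miR-144 and miR-451a TAMs, filled points called at an adjusted p under 0.05 and open points not called. The left panel lies mostly above 0, whereas the other 2 run from -2.48 (Anxa1) to 1.84 (Cd163) and from -2.08 (Slc30a4) to 1.26 (Slc39a4).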

How the data were processed

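RNA of TAMs sorted from control, miR-144 and miR-451a tumors (5 samples per group, 15 in all) was sequenced by the authors on an Illumina HiSeq instrument. The authors deposited FPKM per gene and sample. The submitters' processing notes name FastQC 0.11.2, STAR and StringTie without their roles, and the genome build is not given in the sources used here. Groups and sample numbers came from the labels. The legend of the study for these data names fewer samples per group than the labels, and all labelled samples were used. The worth of 1 fragment, and from it the depth, was read from low values of single-transcript genes. Only 31.5% to 47.4% of those values were whole multiples of it (tolerance 0.05 of a step), so FPKM were not turned back into counts.

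Log2(FPKM + 1) was fitted with limma 3.58.1 in R 4.3.3 over 11419 genes whose mean reached 1 FPKM, all 3 groups together and with a trend of variance on level. P-values were adjusted by Benjamini-Hochberg, and a gene was called at an adjusted p under 0.05. The fit was tested on simulated data. Identifiers were matched to GENCODE M21 (99.7% present), whose 1-based GRCm38 coordinates are given. Python 3.11.15, numpy 2.4.6, pandas 2.3.3 and matplotlib 3.10.9 were used. The 9 genes and the lists were chosen with earlier results of these data known. All 9 genes are named, and of each other list the 3 largest called rises and falls, Mtf1, Mt3 and Mt4 being added after their values were seen. Some genes that these rules name are not reported here. Alternatives covered the pseudocount, the filter, scaling, a replicate block, the variance model, the samples in the fit, a fold threshold and each sample left out, and leaving out or keeping only miRNA samples 3 and 4 was added after the data were examined.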

Additional observations from a re-analysis of the deposited data

Results flagged for a closer look

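Of 24 groups of 5 samples tested for a single distant sample (8 genes in 3 groups), 4 were flagged, and 1.2 would be flagged by chance. Nr3c1 was low in control sample 5 (5.89 FPKM), with a gap to the next sample of 0.873 of the range of the group, and in miR-144 sample 2 (8.36 FPKM, gap 0.746). Cebpd was high in miR-451a sample 1 (8.32 FPKM, gap 0.833). Mt2 was low in control sample 1 (5.68 FPKM, gap 0.796). The limit for 5 samples is a gap of 0.71.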

How the results depend on the processing

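Over the planned and added alternatives, the calls of Sgk1, Cebpd and Zbtb16 against control were kept in all of those in which they were tested; Cebpd and Zbtb16 were not tested at a minimum mean of 5 FPKM. For miR-144 against control the number of the 8 genes called was 4 with median centring, 4 with quantile normalization and 3 with a log2 change of at least 1, and it was 5 to 7 with a sample left out. Of all 11419 tested genes 7023 were called with median centring, 6998 with quantile normalization and 7385 to 7682 with a sample left out. For miR-451a 4 of the 8 genes were higher and 2 lower with median centring, and 5 were higher and 2 lower with quantile normalization. The number called was 3 with a log2 change of at least 1, 5 with only miRNA samples 3 and 4, and 7 to 8 with a sample left out. Of all 11419 tested genes 7213 were called with median centring and 7185 with quantile normalization. With only miRNA samples 3 and 4 it was 6868, and 7538 to 7817 with a sample left out. Between the miRNA groups none of the 8 genes was called in any alternative. Of the genes against control, Mt1 turned to -0.057 for miR-144 with median centring, and Fkbp5 to -0.0094 for miR-451a with median centring and -0.0099 with quantile normalization. Between miR-451a and miR-144, Fkbp5 turned to 0.0084 on the TPM scale, and with only samples 3 and 4 the difference was 0.064 for Fkbp5, -0.27 for Nr3c1 and -0.067 for Tsc22d3. With a sample left out these differences ran from -0.041 to 0.026 in Fkbp5, from -0.061 to 0.18 in Nr3c1 and from -0.068 to 0.082 in Tsc22d3. The causes were not tested. The Mt1 change for miR-144 was called on the TPM scale (0.15, adjusted p = 0.0109). Without the filter on low values, 29540 genes were tested and 9686 and 10091 were called. With a log2 change of at least 1, 888 and 944 of 11419 genes were called. Calls were higher in 52.3% of cases with quantile normalization and in 76.5% (miR-144) and 77.3% (miR-451a) on the TPM scale. Counting error limits Zbtb16 in control and Hsd11b1 in all groups.

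No label says that the sample numbers pair the samples. Deviations of samples with the same number correlated at a mean of -0.012 (control and miR-144), 0.14 (control and miR-451a) and 0.10 (the miRNA groups), against 0.0031, -0.035 and -0.025 for other numbers. Some same-number correlations were below 0, down to -0.15, and with no label for pairing the numbers were not taken as pairs. These values do not settle whether the numbers pair samples. As a hint from the data, 8 of 15 samples correlated best with their own number. With the replicate block 7711, 7859 and 0 genes were called, against 7668, 7804 and 0 without it, and 8, 8 and 0 of the 8 genes. The added gene was Mt1 for miR-144 (adjusted p = 0.0290).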
